A study of Mus musculus with 2 samples.

Results

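Eosinophil-like granulocytes were a small group among the Cd45+ immune cells of B16-F10 tumors, 174 of the 12078 cells that were kept. Expression was counted as unique molecular identifiers (UMIs), each standing for 1 captured mRNA molecule. A cell was called eosinophil-like when its UMIs of Retnlg, Ccr3, Siglecf and Alox15 summed to at least 3 and to at least 0.2% of all its UMIs. It also had to have S100a8 and S100a9, the main neutrophil calprotectin genes, under 0.2% of its UMIs, and at most 2 UMIs of the complement genes C1qa, C1qb and C1qc of macrophages. The limits left 66 of 6284 cells in the library labelled Irg1+/+ and 108 of 5794 cells in the library labelled Irg1-/-. The members were chosen by measured counts of these data, so the levels of these 9 genes are a description, and so is every contrast between the chosen cells and the other cells.

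B16-F10 is a mouse melanoma line, and 200000 of its cells were injected under the skin of female mice aged 8 to 10 weeks on a C57BL/6J background, with no other treatment. The mice either carried intact Irg1 (Irg1+/+) or lacked it in the whole body (Irg1-/-). Irg1, listed as Acod1, encodes the enzyme that makes itaconate from an intermediate of the citric acid cycle. On day 10, pieces of 100 mm3 from the tumors of 3 mice of 1 genotype were pooled, 6000 Cd45+ cells were sorted from each pool, and mRNA was captured with BD Rhapsody, a microwell system.

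Each genotype thus had 1 library and no replicate, so no test between genotypes could be made, and whatever else differed between the pools cannot be told apart from the genotype. The deposited matrices held 6408 and 5896 cell barcodes (Irg1+/+ and Irg1-/-, in this order throughout), of which the 12078 kept cells had mitochondrial genes under 10% of their UMIs. The libraries shared 36 barcodes. In each library 1 eosinophil-like cell carried such a barcode, and no barcode was eosinophil-like in both. Levels are UMIs summed over the cells of a group and scaled to CPM (counts per 1000000 of that group's UMIs outside mitochondrial genes). Ranges after a level are exact 95% Poisson intervals and ranges after a share are exact 95% Clopper-Pearson intervals. Both cover counting error only.

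Eosinophils are granulocytes that mature in the bone marrow under interleukin 5 and enter tissues along gradients of eotaxins, which bind the chemokine receptor CCR3. The mature cell carries the sialic acid receptor Siglec-F and cationic granule proteins such as major basic protein and eosinophil peroxidase, whose mRNAs are made mainly in marrow precursors. In tumors, eosinophils are known to release chemokines and growth factors and to meet both T cells and macrophages.

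GATA1 is the factor that commits precursors to the eosinophil lineage, and the start regions of several marker genes hold the letters that GATA factors are known to bind. The letters AGATAA and TGATAA were searched on both strands in 300 bases (250 before and 50 after the start) of every RefSeq promoter of GRCm38.p6. They were found in 18.6% of 32851 promoters, and in 6 of the 13 promoters of the marker genes. Of 12 marker genes searched, 10 had a promoter there and 5 of these a match. Promoters of Ccr3 (chr9:124021721-124022020, plus strand), Il5ra (chr6:106748988-106749287, minus strand), which encodes the interleukin 5 receptor alpha chain, Serpinb2 (chr1:107511260-107511559, plus strand), a plasminogen activator inhibitor, and F5 (chr1:164151585-164151884, plus strand), coagulation factor V, are shown because these genes are described below as markers of the cells. Capitals mark the searched letters.
Ccr3: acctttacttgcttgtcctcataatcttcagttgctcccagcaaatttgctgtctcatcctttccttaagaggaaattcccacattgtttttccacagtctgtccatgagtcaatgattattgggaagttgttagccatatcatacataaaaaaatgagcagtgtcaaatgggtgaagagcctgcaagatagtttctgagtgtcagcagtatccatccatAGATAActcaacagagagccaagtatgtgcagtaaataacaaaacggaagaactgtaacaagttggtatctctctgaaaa
Il5ra: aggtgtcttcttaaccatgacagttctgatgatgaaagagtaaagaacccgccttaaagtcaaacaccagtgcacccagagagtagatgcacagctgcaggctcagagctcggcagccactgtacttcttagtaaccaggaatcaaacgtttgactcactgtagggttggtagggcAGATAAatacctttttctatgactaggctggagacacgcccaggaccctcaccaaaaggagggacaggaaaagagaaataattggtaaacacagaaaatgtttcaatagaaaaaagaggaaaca
Serpinb2: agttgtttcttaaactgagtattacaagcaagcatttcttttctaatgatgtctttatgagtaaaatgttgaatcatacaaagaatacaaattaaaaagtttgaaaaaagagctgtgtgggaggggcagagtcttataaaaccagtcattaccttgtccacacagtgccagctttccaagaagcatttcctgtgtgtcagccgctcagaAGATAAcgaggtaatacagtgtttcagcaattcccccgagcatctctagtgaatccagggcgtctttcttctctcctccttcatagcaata
F5: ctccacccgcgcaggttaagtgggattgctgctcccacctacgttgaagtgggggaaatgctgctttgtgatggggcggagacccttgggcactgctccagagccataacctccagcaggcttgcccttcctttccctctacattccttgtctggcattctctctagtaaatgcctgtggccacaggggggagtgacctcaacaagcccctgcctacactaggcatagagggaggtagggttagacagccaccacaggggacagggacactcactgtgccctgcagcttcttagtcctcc

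The letters lay 29 bases before the start in Ccr3, 73 before in Il5ra and 40 before in the Serpinb2 promoter shown, while another Serpinb2 promoter (chr1:107511173-107511472) and the F5 window held none. Siglecf held them 12 bases after the start. Il1rl1, the interleukin 33 receptor, held them 216 and 79 bases before the start of 1 promoter and 102 before that of another. These matches describe the letters only.

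Acod1 (chr14:103046977-103056573, plus strand), the gene targeted in the knockout, was detected in the eosinophil-like cells of both libraries. The cells held 47 UMIs in Irg1+/+, or 767 CPM (563 to 1019), and 62 UMIs in Irg1-/-, or 529 CPM (405 to 678). On the log2 scale Irg1-/- stood at −0.54 relative to Irg1+/+, with a counting interval of −1.11 to 0.04 that includes 0. The value was −1.93 with C1q genes limited to 0 UMIs, and 0.024 without cells holding 2 or more UMIs of T, NK, B or melanoma cell genes. The deleted part of the gene is not given in the sources used here, so these 3′ tags may lie outside it and do not check the genotype. Acod1 was found in 37.9% and 34.3% of the eosinophil-like cells. With every cell thinned to 500 UMIs, the shares were 15 of 66 and 27 of 108 cells, against 59.4% and 50.9% of cells in a neutrophil gate (S100a8 and S100a9 at least 0.5% of UMIs) and 1.96% and 0.858% in a lymphocyte gate, which served as the measure of free RNA. Unthinned, the shares were 78.1% and 80.2% in the neutrophil gate and 8.13% and 7.30% in the lymphocyte gate. They were 26.5% and 36.6% in a gate of macrophages with C1q genes. Thinning takes more from deeper cells, free RNA included, so the thinned lymphocyte shares may set free RNA too low. The levels in the neutrophil gate were 2692 and 1942 CPM, in a monocyte gate 136 and 120 CPM, and in the C1q macrophage gate 117 and 145 CPM. Eosinophil-like cells thus came after neutrophils and before the other 3 gates in Acod1 level in both libraries, and the counting intervals of neighbours around them in that order did not overlap.

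The eosinophil-like cells were shallow. Their median depth was 777.5 UMIs (501 to 3308) and 534.5 genes in Irg1+/+, and 1009.5 UMIs (506 to 5533) and 666.5 genes in Irg1-/-. All kept cells had medians of 4645.5 and 4703 UMIs, neutrophil-gate cells 1661.5 and 1685.5, and lymphocyte-gate cells 3228 and 2763. No deposited barcode had fewer than 501 UMIs, and 68.2% and 49.1% of the eosinophil-like cells, against 14.1% and 10.5% of all kept cells, had under 1000 UMIs, so that cells of this kind may have been lost below the lowest deposited depth. A level of 3 UMIs, the limit that a count of 0 allows, was 48.9 and 25.6 CPM in these cells. The share of mitochondrial UMIs was low, with medians of 1.25% and 1.17%.

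Most cells that met the first limit passed the others. The 4 summed genes reached 3 UMIs in 121 and 191 cells, 33 and 48 of which had them under 0.2% of UMIs. Of the rest, 7 and 19 cells were left out for S100a8 and S100a9, and 15 and 16 for C1q genes. Retnlg, a resistin-like protein gene that neutrophils also express, had a UMI in 58 and 83 of the chosen cells, and Alox15, the 15-lipoxygenase gene, in 42 and 79. Ccr3 had a UMI in 34 and 62 cells, and Siglecf in 7 and 26. All 4 genes were seen in 4 and 10 cells, 3 of them in 18 and 36, 2 in 27 and 40, and 1 in 17 and 22.

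**Figure D1:**
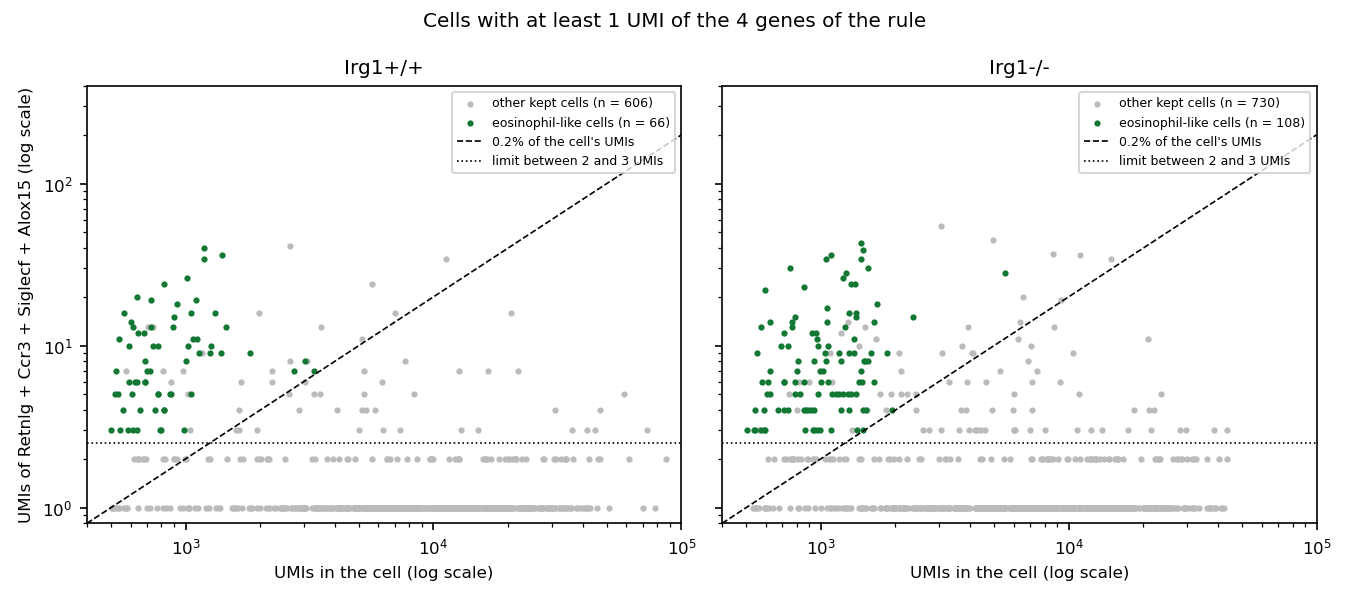
UMIs of Retnlg, Ccr3, Siglecf and Alox15 summed per cell (vertical, log scale) against all UMIs of the cell (horizontal, log scale), for kept cells with at least 1 such UMI in each library. Green points are the 66 and 108 eosinophil-like cells and grey points are other kept cells, including those left out for S100a8, S100a9 or C1q genes. The green points gather at the low end of depth.

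Cells just outside the lower limit held the same markers. At a sum of exactly 3 UMIs, 8 and 14 cells were inside, with F5 at 2045 and 1100 CPM and Serpinb2 at 1301 and 423 CPM. At a sum of exactly 2 UMIs, 13 and 14 cells met the other limits and were outside, with F5 at 922 and 1091 CPM and Serpinb2 at 307 and 364 CPM. F5 or Serpinb2 had a UMI in 7 and 9 of these outside cells, and in 46 and 88 of the eosinophil-like cells. A clustering of all kept cells with the settings of the study's methods gave 20 clusters, and 1 of them held 62 of 66 and 103 of 108 eosinophil-like cells. Its other 53 and 61 cells had medians of 683 and 816 UMIs, with F5 at 475 and 1383 CPM and C1qb at 950 and 663 CPM.

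In the Irg1+/+ library 3 of the 66 cells went against the label. They had 2738, 3023 and 3308 UMIs and 7, 8 and 7 UMIs of Ccr3, but no UMI of Retnlg, Siglecf, Alox15, F5 or Serpinb2. They held 7, 8 and 11 UMIs of the T cell receptor gene Trac and 25, 29 and 23 UMIs of Gzmb, the cytotoxic protease granzyme B. The clustering placed none of them with the other eosinophil-like cells. No Irg1-/- cell was of this kind. The 3 cells met the rule and stay in the values, and where a named gene's 2-fold difference between the libraries ends without them, its value without them is given too. No doublet caller was run.

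Outside the genes of the rule, some eosinophil genes were far above the other cells and others had 0 UMIs. F5 (chr1:164151838-164220277, plus strand) had 84 and 184 UMIs, or 1370 CPM (1093 to 1696) in Irg1+/+ and 1569 CPM (1351 to 1813) in Irg1-/-. These levels were 91.8 and 83.5 times those of the other kept cells. Serpinb2 (chr1:107511423-107535478, plus strand) had 1060 CPM (818 to 1351) and 1347 CPM (1146 to 1575), 66.7 and 79.2 times the level of other cells. Both were given as markers with these data in view. After thinning to 500 UMIs, F5 was seen in 26 of 66 and 54 of 108 eosinophil-like cells, in 3.13% and 2.59% of neutrophil-gate cells and in 0% of lymphocyte-gate cells, and unthinned in 60.6% and 71.3%, 9.38% and 12.9%, and 1.05% and 0.429%.

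Il5ra (chr6:106710357-106749037, minus strand) had 7 and 15 UMIs, or 114 CPM (45.9 to 235) and 128 CPM (71.6 to 211), while it had 0 UMIs in the neutrophil gate of either library. Il1rl1 (chr1:40429570-40465415, plus strand) had 294 and 426 CPM, against 25.6 and 52.0 CPM in the lymphocyte gate. Siglecg, a relative of Siglecf, had 228 and 435 CPM. Cd9, a tetraspanin of eosinophils, had 816 and 827 CPM but was higher in the neutrophil gate, at 1868 and 1144 CPM. Adgre1, which encodes F4/80, had 375 and 665 CPM. In the list of eosinophil identity genes outside the rule, 7 of 14 genes had the 20 UMIs over both libraries needed for a fold, and 5 of the others had 0 UMIs. The UMIs are counted in the eosinophil-like cells, so a gene enters through the cells where it is high, here and in every list below, and the counts are a description that does not bear on the label. The 7 were at least 2-fold above the other cells in both libraries. Over all genes with that many UMIs, 302 of 1816, or 16.6%, were so, and 76 of 1816, or 4.19%, were at least 2-fold lower. The list's median log2 fold was 6.06 and 6.31, against 0.26 and 0.19 for all genes.

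Granule protein mRNA was scarce. Prg2 (chr2:84980461-84983632, plus strand), the major basic protein gene, had 14 and 16 UMIs, or 228 CPM (125 to 383) and 136 CPM (78.0 to 222), with 0 UMIs in the neutrophil gate. The eosinophil ribonuclease genes Ear6 (chr14:51853699-51854643, plus strand) and Ear2 had 3 and 11 UMIs and 2 and 3 UMIs. Epx, Prg3 and Ear1, which encode eosinophil peroxidase, a second major basic protein and a further ribonuclease, had 0 UMIs in both libraries, as did Clec4a4 and the leukotriene C4 synthase gene Ltc4s. Prg2 was the only member of the 6 granule genes with enough UMIs for a fold. Its log2 fold over the other kept cells was 8.30 and 7.72, so it was low in level but far above those cells. Reads of Ear genes may be split among close copies, so their values are uncertain.

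**Figure D2:**
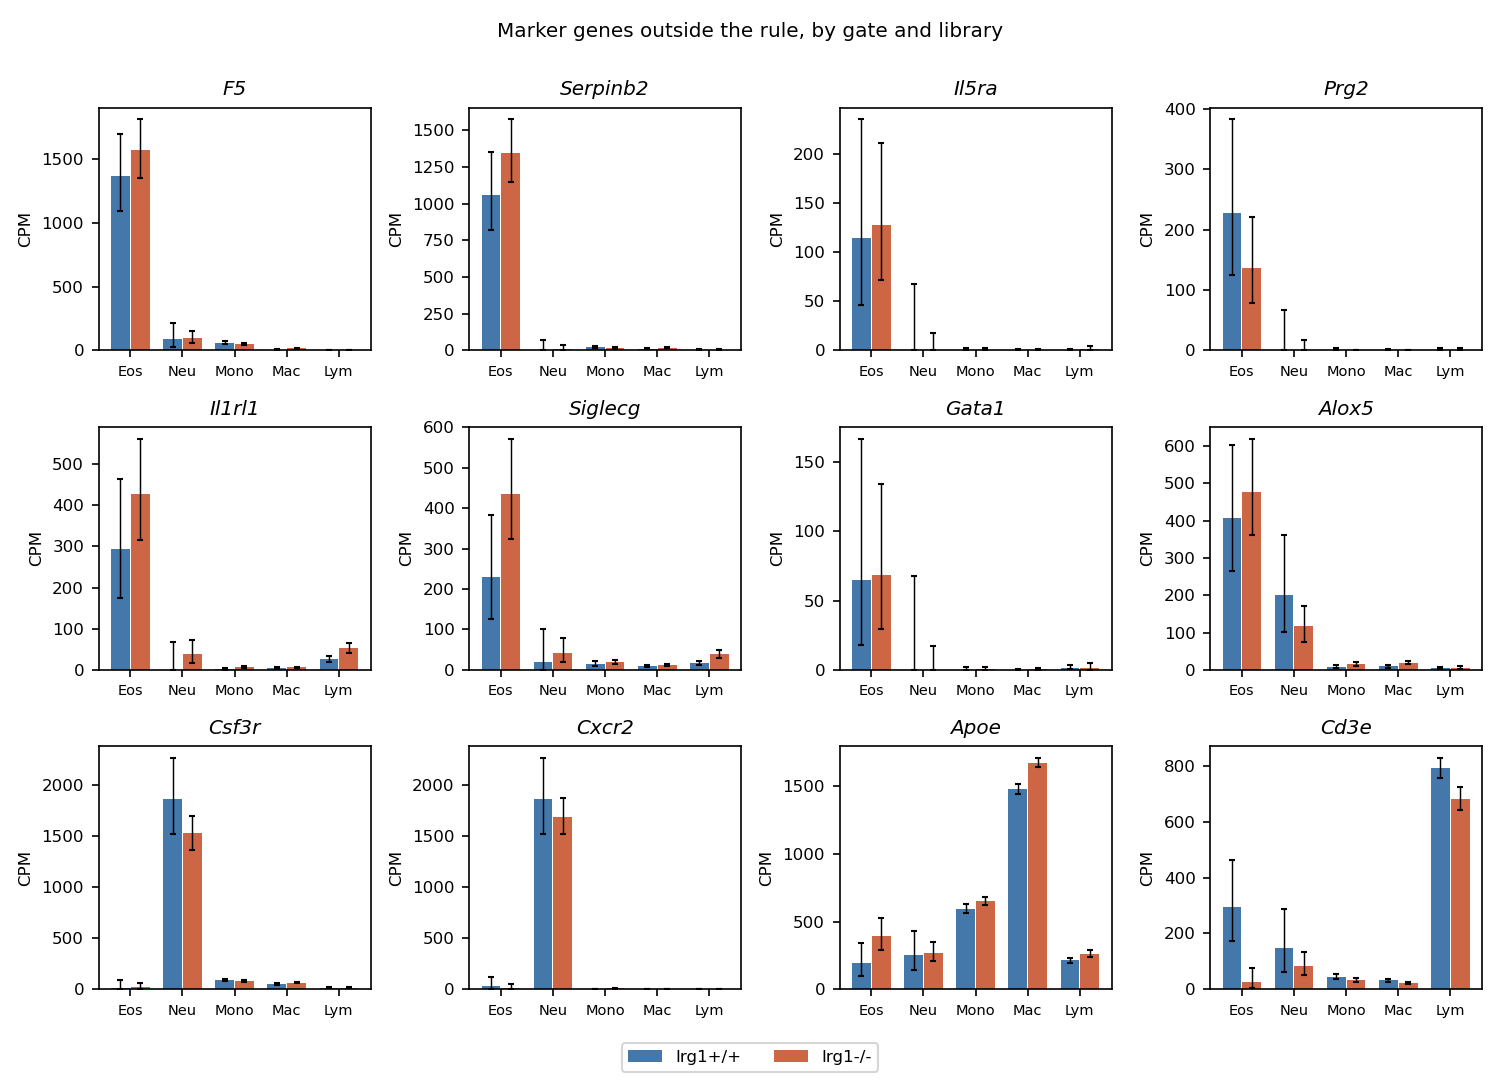
CPM of 12 genes outside the rule in eosinophil-like (Eos), neutrophil (Neu), monocyte (Mono), C1q macrophage (Mac) and lymphocyte (Lym) gates, with bars for the Irg1+/+ and Irg1-/- libraries and lines for exact 95% Poisson intervals of counting error. F5, Serpinb2, Il5ra, Prg2, Il1rl1, Siglecg, Gata1 and Alox5 are highest in the eosinophil-like cells, Csf3r and Cxcr2 in neutrophils, Apoe in macrophages and Cd3e in lymphocytes.

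Of the neutrophil genes, some were near 0 in the eosinophil-like cells and others lay above the other kept cells. The rule left out cells high in S100a8 and S100a9 and the neutrophil gate took them, so the contrast with that gate is a description. Csf3r, the receptor of the neutrophil growth factor G-CSF, had 1 and 2 UMIs in eosinophil-like cells and 1868 and 1527 CPM in the neutrophil gate. Cxcr2, the main chemokine receptor of neutrophils, had 2 and 1 UMIs against 1868 and 1690 CPM. Ly6g, Camp, Ltf, Ngp, Lcn2 and Stfa2l1 had 0 UMIs in both libraries, and the 13 genes of the neutrophil list summed to 799 and 1356 CPM, against 11590 and 9920 CPM in the neutrophil gate. Part of that sum came from Hdc, the histamine-forming enzyme (277 and 597 CPM), Mmp9, a gelatinase (294 and 290 CPM), and G0s2, a lipase inhibitor (97.9 and 367 CPM). These 3 were the members with a fold, and all 3 were at least 2-fold above other cells in both libraries, beside 16.6% of all genes. The list medians were 4.99 and 4.80. Retnlg itself had 8041 and 6234 CPM in eosinophil-like cells and 1666 and 574 CPM in the neutrophil gate.

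Markers of other cell types were present in part. Mast cell and basophil genes summed to 0 and 11 UMIs, or 0 and 93.8 CPM, with Mcpt8, Ms4a2, Fcer1a, Kit and Prss34 at 0 UMIs in both libraries. In Irg1-/- the other 4 gates held less (at most 79.6 CPM) and kept cells in no gate held more (225.6 CPM). The order is not read from so few UMIs. B cell genes summed to 0 and 17.1 CPM, with Cd79a, Cd79b, Ms4a1 and Pax5 at 0, and hemoglobin and other erythroid genes to 0 in both. Melanoma cell genes summed to 147 and 68.2 CPM. Genes of resident peritoneal macrophages, which also express Alox15, summed to 2 and 8 UMIs, or 32.6 and 68.2 CPM, with Gata6, Cd5l, Vsig4 and Garnl3 at 0 UMIs. The other 4 gates held less (at most 18.3 and 51.5 CPM), and kept cells in no gate held 15.2 and 83.4 CPM. This order too rests on few UMIs and is not read. Macrophage genes summed to 1403 and 1450 CPM against 6903 and 6914 CPM in the C1q macrophage gate, and their most abundant members were Cd68 in Irg1+/+ and Apoe in Irg1-/-. Of the 3 macrophage genes with a fold, none was past 2-fold in both libraries (medians −0.84 and −0.92). Monocyte genes summed to 1729 and 2260 CPM against 10983 and 12307 CPM in the monocyte gate. In both libraries 2 of 4 were at least 2-fold lower than in other cells, beside 4.19% of all genes (medians −0.83 and −1.66). Dendritic cell genes summed to 343 and 648 CPM, beside 616 and 620 CPM in the monocyte gate, the highest of the other 4 gates, and their most abundant member and the 1 with a fold, Fscn1, was past 2-fold in neither direction in both (−1.32 and −0.51). NK cell genes summed to 408 and 392 CPM, with 1 of 2 members lower, beside the same 4.19% (medians −1.08 and −1.67). T cell genes summed to 1827 and 384 CPM, and to 688 CPM in Irg1+/+ without the 3 cells, with none of 3 members past 2-fold in both libraries (medians 0.26 and −1.85). How far free RNA or joined cells feed these sums was not tested.

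Transcription factors of the eosinophil lineage were present at low counts. Gata1 had 4 and 8 UMIs, or 65.2 and 68.2 CPM, and 0 UMIs in the neutrophil gate. Cebpe, a factor of late granulocyte maturation, had 7 and 5 UMIs. Cebpb, which acts in mature myeloid cells, had 1860 and 2200 CPM, and Trib1, a regulator of C/EBP proteins, had 1354 and 1245 CPM. Cebpb and Trib1 were the 2 members of 6 with a fold in the list of 12 lineage factors that were at least 2-fold higher in both libraries, while Irf8, a monocyte and dendritic cell factor, was lower (list medians −0.23 and 0.10). Among all genes 16.6% were higher and 4.19% lower.

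The cells were not uniform in the genes of the rule. Cells with Ccr3 or Siglecf numbered 37 and 68, cells with Alox15 but neither receptor 15 and 29, and cells with Retnlg alone 14 and 11. The last kind is the nearest to neutrophils by its choice. It held F5 at 704 and 582 CPM and Serpinb2 at 804 and 466 CPM, with 0 and 1 UMIs of Csf3r. A level of 3 UMIs was 302 and 349 CPM in this kind, so all these values rest on few UMIs and do not settle what its cells are. Its median depth, 616.5 and 712 UMIs, was below that of the cells with Ccr3 or Siglecf, at 818 and 1084.5. Retnla, the resistin-like alpha gene of alternatively activated cells, was the most unevenly spread of the genes examined for spread with over 100 UMIs in each library. It had 116 and 202 UMIs, or 1892 and 1723 CPM, in 11 and 22 cells, and the top 5 cells of each library held 87 of the 116 and 116 of the 202 UMIs. In Ccl6 the top 5 cells held 22.0% and 14.1%.

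**Figure D3:**
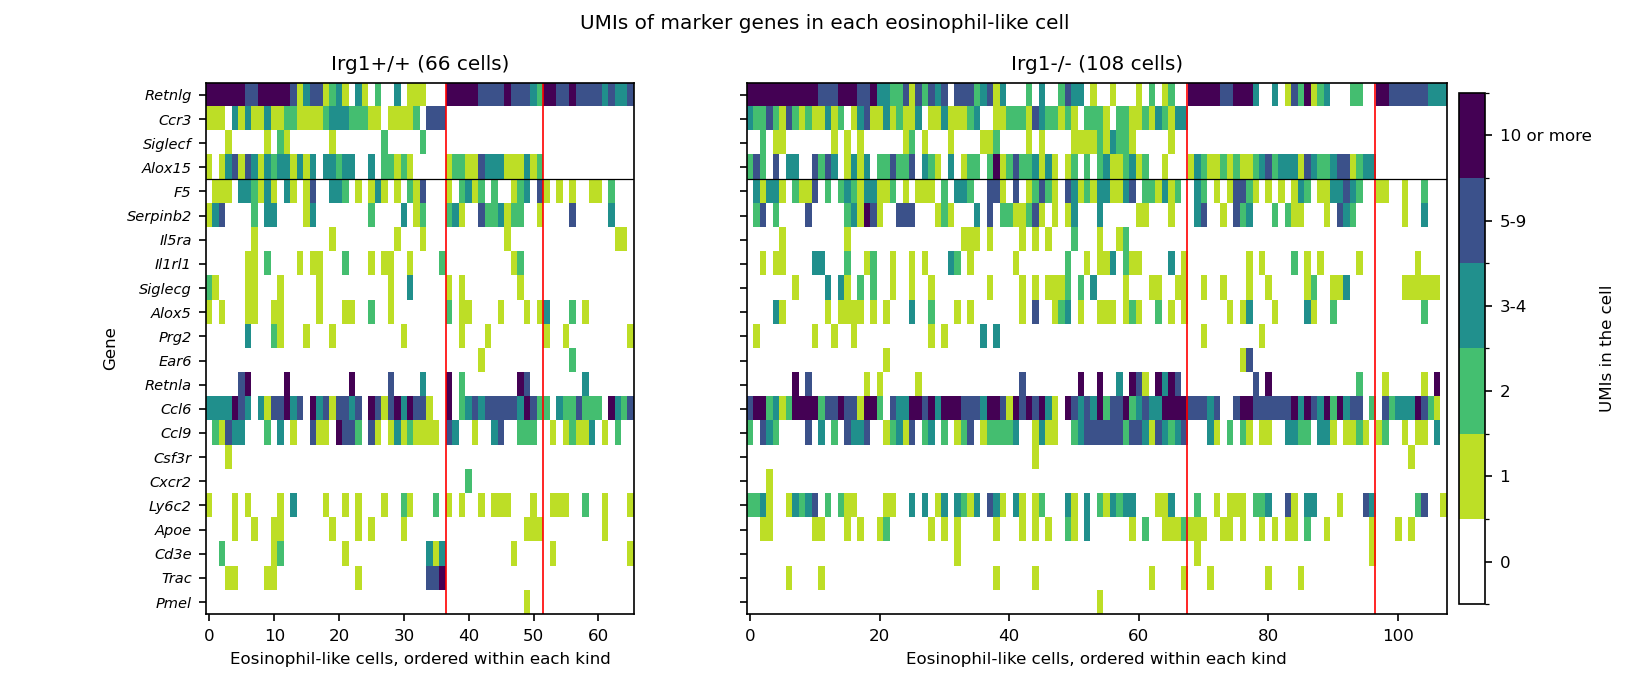
UMIs of 22 genes (rows) in each of the 66 and 108 eosinophil-like cells (columns), colored from 0 to 10 or more UMIs. Red lines separate cells with Ccr3 or Siglecf, with Alox15 but neither, and with Retnlg alone, and the black line separates the 4 summed genes from the rest. F5 and Serpinb2 are scattered over all 3 kinds, Retnla is concentrated in few cells, and the 3 Irg1+/+ cells with Cd3e and Trac lack F5 and Serpinb2.

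The rule for naming took genes outside the rule with at least 50 UMIs and a UMI in 20% of the cells of each library. It named the 15 of these with the largest fold over other kept cells, by the library with the lower fold. Within this limit F5 and Serpinb2 were the first and the third. Rflnb, a filamin-binding protein gene, had 506 and 512 CPM, 88.3 and 78.1 times the other cells. Rab44, a large Rab GTPase linked to granule release, had 1060 and 1075 CPM, 95.7 and 64.7 times the other cells. The order of the first 4 rests on differences within their counting error. Aqp9, a glycerol channel, and Syne1, a nuclear envelope protein gene, followed at 294 and 281 CPM and at 718 and 657 CPM.

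Gadd45a, a stress sensor, had 1174 and 1569 CPM, and Gapt, an adaptor of leukocyte membranes, had 522 and 597 CPM. Cyp4f18, which inactivates leukotriene B4, had 897 and 1092 CPM. Pygl, the glycogen phosphorylase of liver type, had 913 and 802 CPM. Slc2a3, a high-affinity glucose transporter, had 424 and 452 CPM, 9.43 and 10.4 times the other cells. Slc7a11, the cystine carrier of glutathione synthesis, had 587 and 716 CPM but was higher in the neutrophil gate, at 1263 and 1036 CPM. Cd24a, a sialylated surface protein that binds Siglec receptors, had 1957 and 3693 CPM, 9.35 and 18.4 times the other cells, against 2124 and 1298 CPM in the neutrophil gate.

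Enzymes of lipid mediators were among the higher groups. Alox5, the 5-lipoxygenase gene, had 408 CPM (264 to 602) and 478 CPM (361 to 620), against 201 and 117 CPM in the neutrophil gate. Alox5ap, which presents arachidonate to it, had 1060 and 1535 CPM. Pla2g7, the enzyme that degrades platelet activating factor, had 718 and 998 CPM. These were the 3 of 5 tested members outside the rule that were at least 2-fold higher in both libraries, and none was lower (list medians 1.48 and 1.67). Over all genes, 16.6% were higher and 4.19% lower. Alox15, in the rule, had 1696 and 1851 CPM and 0 UMIs in the neutrophil gate.

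Csf2rb and Csf2ra, the beta and alpha chains used by GM-CSF, had 506 and 998 CPM and 652 and 1040 CPM, below the 1080 and 1223 CPM and the 970 and 1330 CPM of the neutrophil gate. In the list of growth and survival receptors 2 of 6 members, Il5ra and Il1rl1, were at least 2-fold higher in both libraries, beside 16.6% of all genes, and none was lower (medians 0.52 and 0.98). Among the chemoattractant receptors outside the rule, Ptafr, which binds platelet activating factor (783 and 682 CPM), Cxcr4, a homing receptor (783 and 759 CPM), and P2ry14, a receptor of UDP sugars (408 and 230 CPM), were the 3 of 8 that were higher. Of the 8, 1 was lower (list medians 0.19 and 0.33). These counts stand beside 16.6% of all genes higher and 4.19% lower. Ptgdr2, the prostaglandin D2 receptor of eosinophils, and the histamine receptor gene Hrh4 had 0 UMIs.

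The ligands that draw or sustain eosinophils were looked for in all gates. Ccl11 and the interleukin genes Il5, Il3, Il33 and Il25 had 0 UMIs in eosinophil-like cells, and so did Ccl24, Ccl26, Csf2 and Tslp. Ccl24, the eotaxin of macrophages, had 47.8 and 14.3 CPM in the C1q macrophage gate, whereas Ccl11 and Il33 were under 1 CPM in each gate of each library. Ccl8 had 596 and 469 CPM and Ccl7 1329 and 1299 CPM in that gate, and Ccl5, a ligand of CCR3, had 3228 and 3315 CPM in the lymphocyte gate. Within the eosinophil-like cells 3 of the 4 ligands with a fold (Ccl5, Ccl7 and Ccl2) were at least 2-fold lower than in other cells in both libraries, and none was higher (medians −1.38 and −1.59). For all genes the shares were 4.19% lower and 16.6% higher.

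The eosinophil-like cells themselves expressed several chemokines. Ccl6 (chr11:83587882-83593087, minus strand), a chemokine of myeloid cells, had 4828 CPM (4294 to 5411) and 7087 CPM (6613 to 7586), higher than in any other gate. Its neighbor Ccl9 (chr11:83572919-83578636, minus strand) had 1908 and 1876 CPM, against 330 and 280 CPM in the neutrophil gate. Cxcl2 had 1974 and 2976 CPM and Ccl3 1011 and 1168 CPM, but both were far higher in the neutrophil gate, with 14355 and 21689 CPM and with 6372 and 7666 CPM. Il1b, at 1011 and 1399 CPM, was likewise below the neutrophil gate, at 7507 and 12801 CPM.

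Of the 16 cytokine and chemokine genes with a fold, Ccl6, Osm, which encodes oncostatin M, and Csf1, the macrophage growth factor gene, were at least 2-fold higher in both libraries and 4 were lower, Ccl2, Ccl5, Cxcl9 and Cxcl10 (medians 0.08 and 0.68). The shares over all genes were 16.6% higher and 4.19% lower, and nothing is read from a share near these. The interleukin 1 family and inflammasome list had 1 of 7 higher in both, Il1rl1, and 1 lower, Nlrp3, beside the same 16.6% and 4.19% (medians −0.44 and 0.31). Il1rn, the interleukin 1 receptor antagonist, had 1533 and 921 CPM and passed 2-fold over other cells in Irg1+/+ alone. Il4 had 3 UMIs in each library and Il13 had 0. Thbs1, a matrix protein of platelets and myeloid cells, had 4404 and 4622 CPM, and Adam8, a metalloprotease, had 1452 and 1765 CPM. In the list of coagulation, proteolysis and remodeling genes, 6 of 9 were higher in both libraries, against 16.6% of all genes. None was lower, against 4.19% (medians 1.37 and 1.98). F5, Serpinb2, Thbs1, Adam8 and Mmp9 were among the 6. In the resistin-like family Retnla was the 1 member outside the rule with a fold (4.71 and 3.67), and in the Siglec family it was Siglecg (3.77 and 4.25).

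**Figure D4:**
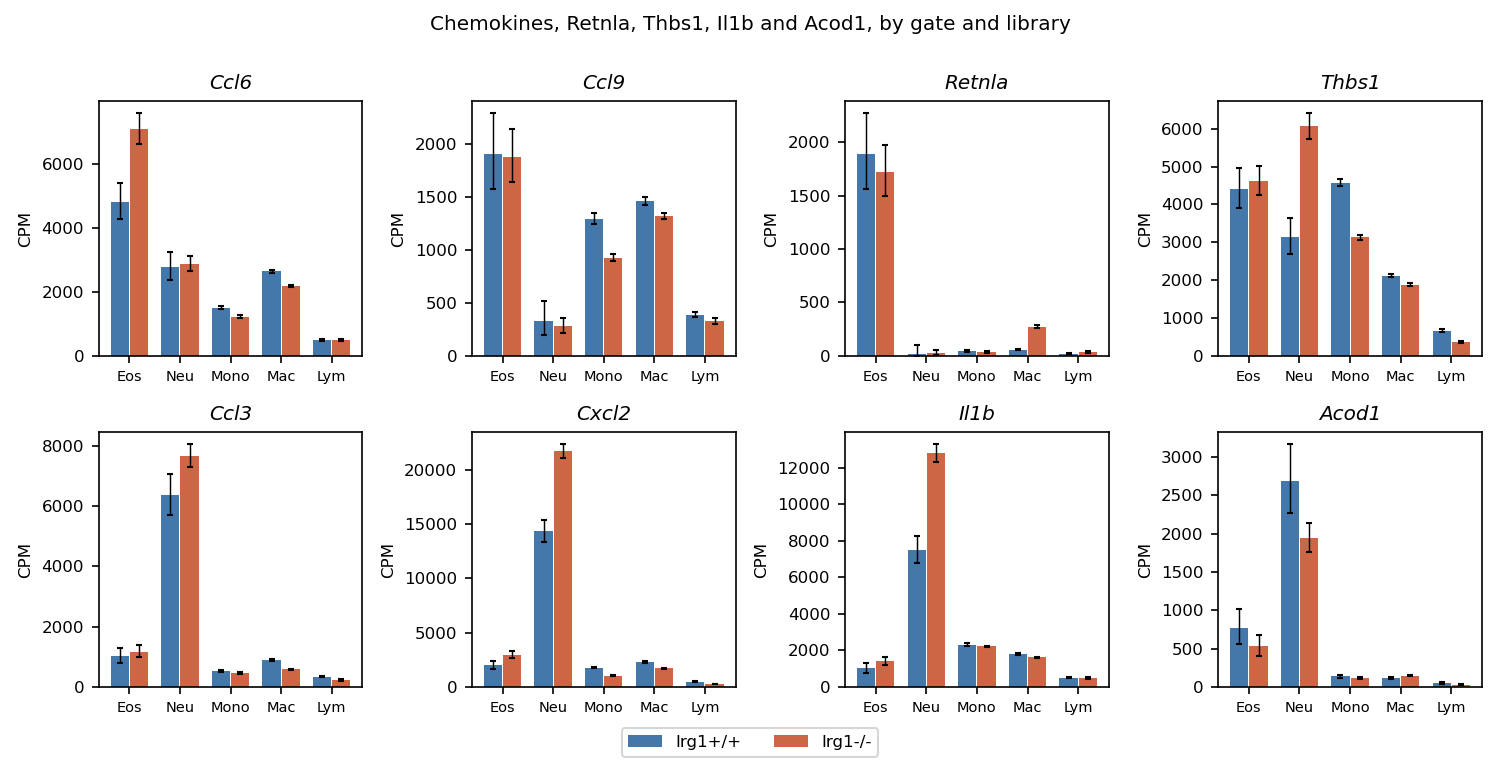
CPM of 8 genes in the eosinophil-like (Eos), neutrophil (Neu), monocyte (Mono), C1q macrophage (Mac) and lymphocyte (Lym) gates, with bars for the 2 libraries and lines for exact 95% Poisson intervals of counting error. Ccl6, Ccl9 and Retnla are highest in the eosinophil-like cells of both libraries, while Ccl3, Cxcl2, Il1b and Acod1 are highest in neutrophils.

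Antigen presentation genes are described by class, and the difference between the classes was not tested. H2-K1 and H2-D1, the classical class I heavy chains, had 7258 and 6311 CPM and 7683 and 7573 CPM, above the levels in every other gate. Even so, none of the 10 class I pathway genes was past 2-fold in both libraries (medians 0.57 and −0.0036). In class II presentation 4 of 5 genes were at least 2-fold lower than in other cells in both libraries, beside 4.19% of all genes (medians −1.29 and −1.25). H2-Aa had 1876 and 2686 CPM, against 6073 and 6567 CPM in the C1q macrophage gate, and close to the 1901 and 2435 CPM in the lymphocyte gate. Cd74, the invariant chain, had 1354 and 1936 CPM against 1718 and 2207 CPM in the lymphocyte gate. That gate also holds B cells, which express both, and the part of free RNA in these levels was not tested.

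The counts below stand beside 16.6% of all genes at least 2-fold higher in both libraries and 4.19% lower, and nothing is read from a share near these. Of type I interferon response genes 0 of 13 were at least 2-fold higher in both libraries and 1 was lower (medians −0.30 and −0.71), and of type II genes 1 of 15 was higher and 3 were lower (medians 0.07 and −0.79). The higher one was Irf1, a factor induced by interferon gamma and other signals, with 1941 and 1714 CPM. Surface regulators of T cells and phagocytes had 0 of 8 past 2-fold in either direction in both libraries (medians 0.32 and −0.08), and adhesion molecules had 3 of 11 higher, Itgam, Itgb7 and Cd9 (medians 0.47 and 0.51).

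Immediate early and heat shock genes had 7 of 16 higher and 1 lower, against 16.6% and 4.19% of all genes (medians 0.58 and 0.91), among them Junb at 2577 and 3565 CPM and the phosphatase gene Dusp1 at 3295 and 4912 CPM. These genes respond to tissue dissociation as well as to signals in the tumor, and their part in the other results was not tested. The next 3 lists are few genes each, with shares to be set against the same 16.6% and 4.19%, and nothing is read from them. Apoptosis and survival genes had 2 of 7 higher, Birc3 and the kinase gene Pim1 (3213 and 3377 CPM), and none lower (medians 0.15 and 0.45). Glycolysis and hypoxia genes had 2 of 15 higher, Slc2a3 and the lactate carrier gene Slc16a3 (375 and 418 CPM), and 1 lower, Eno1 (medians −0.24 and 0.30). In the itaconate and Nrf2 list Acod1 and Slc7a11 were the 2 of 8 higher, and Hmox1, heme oxygenase 1, was the 1 lower (medians −0.30 and −0.07). Cell cycle genes had 1 member with a fold, Pcna (−1.08 and −0.62), and arginine and polyamine genes also 1, Odc1 (−0.60 and −1.68), which encodes the first enzyme of polyamine synthesis.

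The eosinophil-like share of kept cells was 1.05% (0.813 to 1.33) in Irg1+/+ and 1.86% (1.53 to 2.25) in Irg1-/-. The difference was 0.814 percentage points, with a Newcombe interval of 0.388 to 1.26 for counting error, and with C1q genes limited to 0 UMIs it was 0.342, between shares of 0.366% and 0.708%. Since libraries share neither mice nor preparation, this difference has no replicate check. Neutrophil-gate cells numbered 32 and 116, so that eosinophil-like cells made up 67.35% (57.1 to 76.5) of the cells of both gates in Irg1+/+ and 48.2% (41.5 to 55.0) in Irg1-/-. Depth moved with the same contrast, since the median eosinophil-like cell had 777.5 and 1009.5 UMIs. Among cells of at least 1000 UMIs the shares were 0.389% and 1.061%, a difference of 0.6715 percentage points. Beyond these values the part of depth in the shares was not tested.

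Between the libraries, the counting intervals of the markers F5, Serpinb2 and Il1rl1 included 0. As log2 ratios (positive where Irg1-/- is higher), the values were 0.19 for F5 (−0.18 to 0.59), 0.34 for Serpinb2 (−0.08 to 0.79) and 0.51 for Il1rl1 (−0.26 to 1.40). Of the genes of the rule, it was −0.17 for Ccr3 (−0.59 to 0.27), 0.78 for Siglecf (−0.22 to 2.01) and 0.12 for Alox15 (−0.22 to 0.48). Retnlg stood at −0.37 (−0.53 to −0.20), an interval without 0. The cells were chosen by their UMIs of Retnlg, Ccr3, Siglecf and Alox15, and their depth differed between the libraries. The ratios of these genes, here and in the lists below, are thus a description and do not show a difference between the libraries. The part of the choice in them was not tested. The median over all 1822 genes with at least 20 UMIs was 0.016, and 90 of them, or 4.94%, were at least 2-fold higher in Irg1-/- and 99, or 5.43%, at least 2-fold lower. With TMM scaling the median was 0.20 and the counts were 157 and 61. Without the 3 cells with T cell genes, 68 of the 90 and 65 of the 99 genes remained past 2-fold, and of the 189 genes 114 had a counting interval without 0.

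Of the 10 genes with the highest ratios in Irg1-/-, 9 are described here. Dgat1 (chr15:76502015-76511953, minus strand), which makes triacylglycerol, had 555 CPM (384 to 775) and 1347 CPM (1146 to 1575), a log2 ratio of 1.26 (0.74 to 1.86). Its ratio was 0.40 in the neutrophil gate, 0.15 in the monocyte gate, 0.06 in the C1q macrophage gate and −0.08 in the lymphocyte gate. Hexim1, an inhibitor of transcription elongation, had 147 and 529 CPM, a log2 ratio of 1.78 (0.83 to 3.04). Cd24a, named above for its fold, had a ratio of 0.91 (0.62 to 1.22), against −0.71 in the neutrophil gate, and was seen in 72.7% and 91.7% of the cells.

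Ly6c2 (chr15:75108158-75111970, minus strand), a monocyte surface antigen, had 489 and 1245 CPM, a log2 ratio of 1.33 (0.77 to 1.97). Its ratio was also above 0 in the C1q macrophage gate (1.26), the monocyte gate (0.72), the lymphocyte gate (0.23) and the neutrophil gate (15 and 260 UMIs). The higher level in Irg1-/- was thus not particular to the eosinophil-like cells, and the level of Ly6c2 in the monocyte gate was 2312 and 3808 CPM. A further 6 of the 10 highest were Pip4k2a, a phosphoinositide kinase gene (1.52), Vrk1 (1.33) and Stk4 (1.24), further kinase genes, Paxbp1 (1.18), Trim25, a ubiquitin ligase gene of antiviral signaling (1.17), and Fosb, an immediate early gene (1.14, and under 2-fold at 0.91 without the 3 cells with T cell genes).

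Lower levels in Irg1-/- rested in part on the 3 cells with T cell genes. Gzmb had 89 and 28 UMIs, a log2 ratio of −2.59, but 12 of the 89 UMIs lay outside these cells, and without them the ratio was 0.025. Ifngr1, the interferon gamma receptor, went from −0.88 to 0.66, Hif1a, the hypoxia factor, from −1.15 to −0.66, Gmfg, a cytoskeletal regulator, from −0.88 to −0.69, and Cdkn1b, a cell cycle inhibitor, from −0.83 to −0.51. The chemokine receptor Ccr2, with 31 and 13 UMIs, went from −2.16 to −0.32.

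For the other named genes the ratio without the 3 cells was as far below 0 or farther. With and without these cells it was −1.02 and −1.07 for Dnajb9, a chaperone of the endoplasmic reticulum, −0.85 and −0.88 for Vsir, an inhibitory receptor of T cell activation, and −0.83 and −0.94 for Sdcbp, an adaptor of membrane traffic. Rbbp6 at −0.88 and P2ry14 at −0.83 both lay farther below 0 without them. The interval of P2ry14 reached 0.02 with all cells and −0.14 without the 3. With Retnlg left out of the sum Rbbp6 turned to above 0, and so did Dnajb9 with C1q genes at 0 UMIs.

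**Figure D5:**
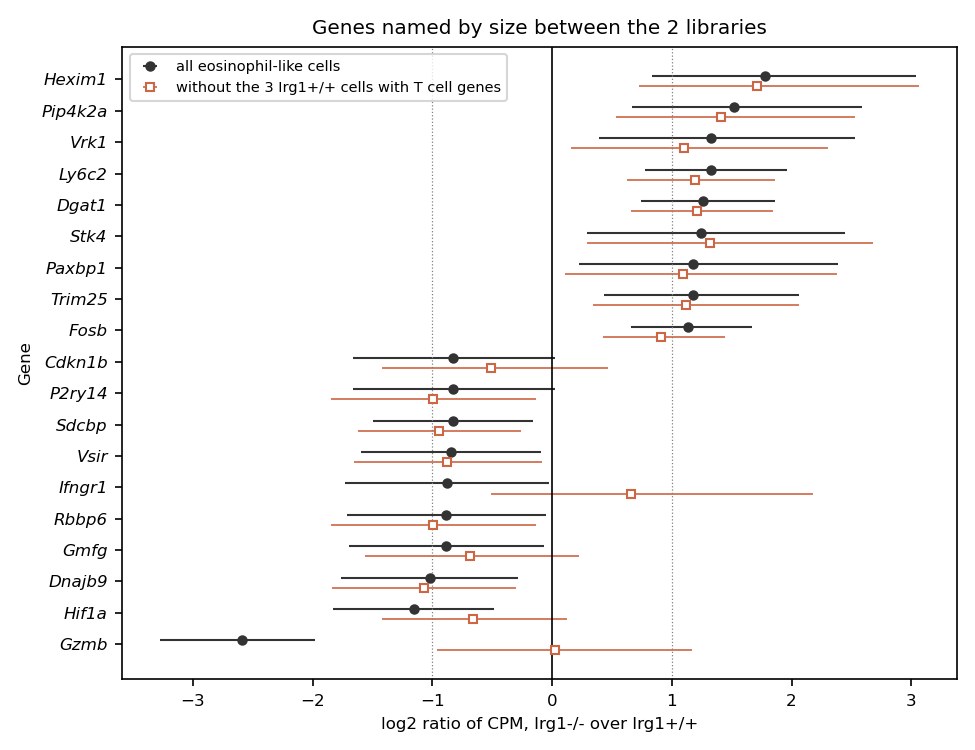
Log2 ratios of CPM, Irg1-/- over Irg1+/+, in eosinophil-like cells for 9 of the 10 highest and for the 10 lowest genes (horizontal axis), with lines for counting intervals. Filled points use all 174 cells and open squares leave out the 3 Irg1+/+ cells with T cell genes. Gzmb and Ifngr1 lose their negative ratio without those cells, and the 9 higher genes stay above 0.

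Inflammatory genes differed by member. Vegfa, an angiogenic factor, had 408 and 827 CPM, a log2 ratio of 1.00 (0.37 to 1.72), and Cxcl2 had a ratio of 0.59 (0.29 to 0.90) and Ccl6 of 0.55 (0.36 to 0.75). Il1rn had −0.74 (−1.15 to −0.32), and Ccl2, a monocyte attractant, −1.20 (−2.17 to −0.27). Il1a had 1 and 29 UMIs, a ratio of 3.36 (1.33 to 9.27), and Il6 had 0 and 14 UMIs, the latter all in 4 cells, with a limit of 3 UMIs in Irg1+/+. Il1a and Ccl2 were the members past 2-fold among the 16 cytokine genes, 1 in each direction (median 0.39). In the interleukin 1 family 2 of 7, Il1a and Il1r2, were higher (median 0.51), and among attractants 2 of 4, Ccl2 and Ccl7, were lower (median −0.46).

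The list counts between the libraries stand beside 4.94% of all genes higher and 5.43% lower past 2-fold. Among the type II interferon genes 3 of 15 were lower and none higher (median −0.32), and 2 of 15 without the 3 cells. They were the GTPase genes Igtp and Irgm1, with −1.34 each, and Nlrc5, the class I activator, with −1.42, and without the 3 cells their ratios were −0.96, −1.16 and −1.38. In the other gates of myeloid cells these 3 genes had ratios above 0. In the type I list Zbp1, a nucleic acid sensor, was the 1 higher at 1.13 (0.00 to 2.64) and Trim30a the 1 lower at −1.38 (−2.42 to −0.40) among 13 (median 0.39). Nlrc5 was also the 1 of 10 class I genes lower, with none higher (median 0.04), and class II genes had 0 of 5 past 2-fold (median 0.51).

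In the neutrophil list G0s2 (1.81, 0.67 to 3.43) and Hdc (1.08, 0.33 to 1.96) were higher, 2 of 3 (median 1.08), and the list summed to 799 and 1356 CPM. Hdc, which sets this median, was at 0.85 without the 3 cells, and the median was 0.75 with the mean of each cell's CPM, both under 2-fold. In the immediate early list Fosb and Atf3 were 2 of 16 higher with none lower (median 0.43), and without the 3 cells Fosb was at 0.91 (0.43 to 1.44), under 2-fold, and the median at 0.25. Glycolysis and hypoxia genes had Egln3 and Pfkp higher and Hif1a lower among 15 (median 0.04), coagulation genes had 1 of 9 higher and none lower (median 0.28), and Odc1 was lower (−1.59). Without the 3 cells Pfkp, at 0.99, and Hif1a, at −0.66, were not past 2-fold. In the chemoattractant receptor list C5ar1, the receptor of complement C5a, and Ccr2 were 2 of 9 lower with none higher (median −0.17, and 0.01 with TMM scaling), and without the 3 cells Ccr2 was at −0.32. All 3 T cell genes were lower (median −2.67), with Trac at −2.67, and without the 3 cells Trac was at −0.38 and Trbc2 at −0.026.

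The lists with 0 members past 2-fold between the libraries were the given markers (of 5, median 0.19), eosinophil identity (of 7, 0.19), granule proteins (of 1, −0.75), lineage factors (of 6, 0.10), growth receptors (of 6, 0.42), lipid mediator enzymes (of 6, 0.34), adhesion (of 11, 0.01) and surface regulators (of 8, 0.03). So were survival (of 7, 0.07), the itaconate and Nrf2 list (of 8, 0.07), the resistin-like family (of 2, −0.25), the Siglec family (of 2, 0.84), macrophage (of 3, 0.08), dendritic cell (of 1, 0.74), NK cell (of 2, 0.07) and cell cycle genes (of 1, 0.29). Among 4 monocyte genes Ly6c2 was higher and Ccr2, with the 3 cells, lower (median 0.38). With the mean of each cell's CPM in place of summed UMIs, the medians of eosinophil identity, lineage factors, adhesion, surface regulators and class I presentation lay below 0, and they are read here as no direction. Apoe, a macrophage gene, had 196 and 392 CPM, a ratio of 0.96 (0.06 to 2.06), and its part in these ratios was not tested.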

How the data were processed

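The data are UMI counts per gene and cell from 2 single-cell libraries, 1 per genotype. Per the study's methods, the authors trimmed reads with fastp, listed barcodes with UMI-tools, mapped them using STAR (Ensembl release 100) and deposited raw counts of 31253 genes. The submitters' processing notes add CASAVA 1.8, Seurat and GRCm38. Cells with over 200 genes and mitochondrial UMIs under 10% were kept, and totals for CPM exclude mitochondrial genes.

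The members, the 36 gene lists and the tests were chosen with earlier results of these data known. UMIs were summed per gate and library. The monocyte gate took Vcan, Ly6c2 and Chil3 at 3 or more UMIs and at least 0.1% of UMIs, the C1q macrophage gate the C1q genes at 0.2%, and the lymphocyte gate Cd3, Cd79 and Ncr1 genes at 3 or more UMIs. Folds and ratios used a pseudocount of 0.5 UMIs and were read for genes whose UMIs in both libraries summed to 20 or more. Named genes had at least 50 UMIs, and a UMI in 20% of the cells of each library (the 15 over other cells) or 10% of either (the 10 highest and 10 lowest ratios). Other genes are list members. Some genes that these rules name are not reported here. No p-value was computed. Intervals assume that UMIs are independent molecules.

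Clustering used Seurat 5.3.0 in R 4.3.3 with 2000 variable genes, 10 components and resolution 0.8. Sums, intervals and plots used scipy 1.17.1, pandas 2.3.3, numpy 2.4.6 and matplotlib 3.10.9 (Python 3.11.15), and TMM factors edgeR 4.0.16. The steps were tested on simulated data. Gene positions are GENCODE vM21 (GRCm38), and promoters are RefSeq (GRCm38.p6). Alternatives changed the limits of the rule, the scaling, the pseudocount, the gene filter and the depth. Leaving out gated cells with at least 10 UMIs of T, NK, B or melanoma cell genes was added after seeing the data.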

Additional observations from a re-analysis of the deposited data

How the results depend on the processing

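No paired analysis was possible because each genotype had 1 library. With 1 library per genotype, intervals show counting error only, and the small sums of shallow cells limit what can be seen. Limiting C1q genes to 0 UMIs left 23 and 41 cells and a difference of shares of 0.342 percentage points (0.366% and 0.708%), an Acod1 log2 ratio of −1.93, 141 genes 2-fold higher than in other cells, and 37 higher and 20 lower in Irg1-/-. The 302 genes above other cells were 198 in cells of at least 1000 UMIs, which left 21 and 55 eosinophil-like cells. They were 142 with these same cells thinned to 1000 UMIs, 143 with a minimum of 50 UMIs and 1509 with 1 UMI. Every thinned value here leaves out the cells under 1000 UMIs as well as lowering the depth. The 90 genes higher in Irg1-/- were 157 with TMM factors, 55 thinned, 14 at 50 UMIs and 1374 at 1 UMI. The 99 lower were 61 with TMM factors, 28 thinned, 3 at 50 UMIs, 1969 at 1 UMI, 49 with the summed genes at 0.4% of UMIs, 65 without Retnlg in the sum, 44 without cells of 2 or more lineage UMIs and 173 with the cluster in place of the gate. Fewer genes pass a higher minimum and fewer cells a stricter rule by construction, and beyond that the cause was not tested. The other 46 of 67 values of these comparisons were within 1.5 times the count, or within the interval of the share or ratio, and the Acod1 ratio was 0.024 without cells of 2 or more lineage UMIs.

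The log2 ratio of Gzmb reversed to 0.067 with C1q genes at 0 UMIs and to 0.025 without the cells with T cell genes, and that of Dnajb9 to 0.067 with C1q genes at 0. The cause was not tested for Dnajb9. Of the 15 genes named over other cells, all 195 values under the alternatives stayed past 2-fold, the lowest log2 fold being 2.56. For the 20 genes named between libraries, 149 of 260 values were at least 2-fold and 250 kept their sign. The exceptions in sign were in 5 genes, Gzmb, Dnajb9, Rbbp6, Ifngr1 and Cdkn1b.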
